A study of Homo sapiens with 2 samples.

Results

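Mitochondrial ribosomal proteins are encoded in the nucleus, made in the cytosol and imported, and they join mitochondrial ribosomal RNA in a large (MRPL) and a small (MRPS) subunit. The ribosome they form makes the few respiratory chain proteins that mitochondrial DNA encodes. Many of the proteins have bacterial counterparts, and others are found in mitochondria and not in bacterial ribosomes. Their mRNA levels are described here in Ca9-22, a line from a gingival squamous carcinoma. Members were the genes whose probe sets carry a single platform symbol starting with MRPL or MRPS and a number, with pseudogenes and antisense transcripts left out. This gave 75 genes of the 19775 that had a probe set of their own, 48 of the large and 27 of the small subunit, on 140 probe sets. All 75 were measured, as were 12729 genes in all, where measured means that a probe set exceeded the median of at least 1 array.

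The groups were cells stably transduced with a RUNX2 vector and cells stably transduced with an empty vector, both selected with blasticidin, and RUNX2 is a runt-domain transcription factor. Each group held 1 array, so no test between them and no p-value is given. With a single array each, every value carries an unknown error. Differences are log2 ratios of the array labelled RUNX2 over the empty vector array, sorted by size at 2-fold and at 1.5-fold. Levels are intensities in arbitrary units after scaling of the array labelled RUNX2 by 0.966. In each gene the brightest measured probe set stood for the gene. The targeted gene did not settle the labels. Of its 3 measured probe sets, 216994_s_at read 854 on the array labelled RUNX2 and 204 on the empty vector array, 221282_x_at read 353 on the array labelled RUNX2 and 102 on the empty vector array, and 232231_at read 433 on the array labelled RUNX2 and 1746 on the empty vector array. Every direction below therefore rests on the label of the array. The 4 measured keratinocyte markers split. KRT14 read 1579 on the array labelled RUNX2 and 586 on the empty vector array, KRT5 had a log2 ratio of 0.51, CDH1 had 0.01, and EPCAM read 2666 on the array labelled RUNX2 and 4930 on the empty vector array (-0.89). Of the fibroblast markers COL1A1 was measured (-0.32), at 1553 on the array labelled RUNX2 and 1937 on the empty vector array. Its other measured probe sets gave -0.39 to -0.20. The 5 other fibroblast markers, COL3A1 and DCN among them, lay below the floor on both arrays. Of the leukocyte markers LCP1 was measured (0.47), at 1073 on the array labelled RUNX2 and 775 on the empty vector array. PTPRC, CD3E and CD14 lay below the floor. Of the endothelial markers PECAM1 and VWF read close to the floors (-0.32 and -0.44), and CDH5 and KDR lay below them. The part of other cell types in the members' ratios was not tested.

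The mitochondrial ribosomal protein mRNAs differed little between the arrays, which read whole cultures, so that fewer expressing cells and less RNA per cell cannot be told apart. None of the 75 members was 2-fold higher in the array labelled RUNX2, where 1.42% of all measured genes were, and none was 2-fold lower, where 1.47% were (2.89% either way). At 1.5-fold, 2 members were higher, MRPS23 and MRPL19, where 5.77% of all genes were higher (12.7% either way). None was 1.5-fold lower, where 6.88% of all genes were lower. The median log2 ratio of the members was 0.10, with an SD between members of 0.27 and a range from -0.44 in MRPL10 to 0.70 in MRPS23. The median of all measured genes was -0.06. Of the 75 members, 51 (68%) lay above 0, where 42.7% of all genes did. Among the 8276 brighter genes kept by a floor at the 75th percentile, 48.8% lay above 0, and 51 of 74 members (68.9%) did. With the medians of the arrays made equal, 62 members (82.7%) and 53.5% of all genes lay above 0. The members' median exceeded that of all genes by 0.16 on the log2 scale. The members' own median was 0.19 with equal array medians and 0.05 without the probe sets that can match several transcripts.

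**Figure D1:**
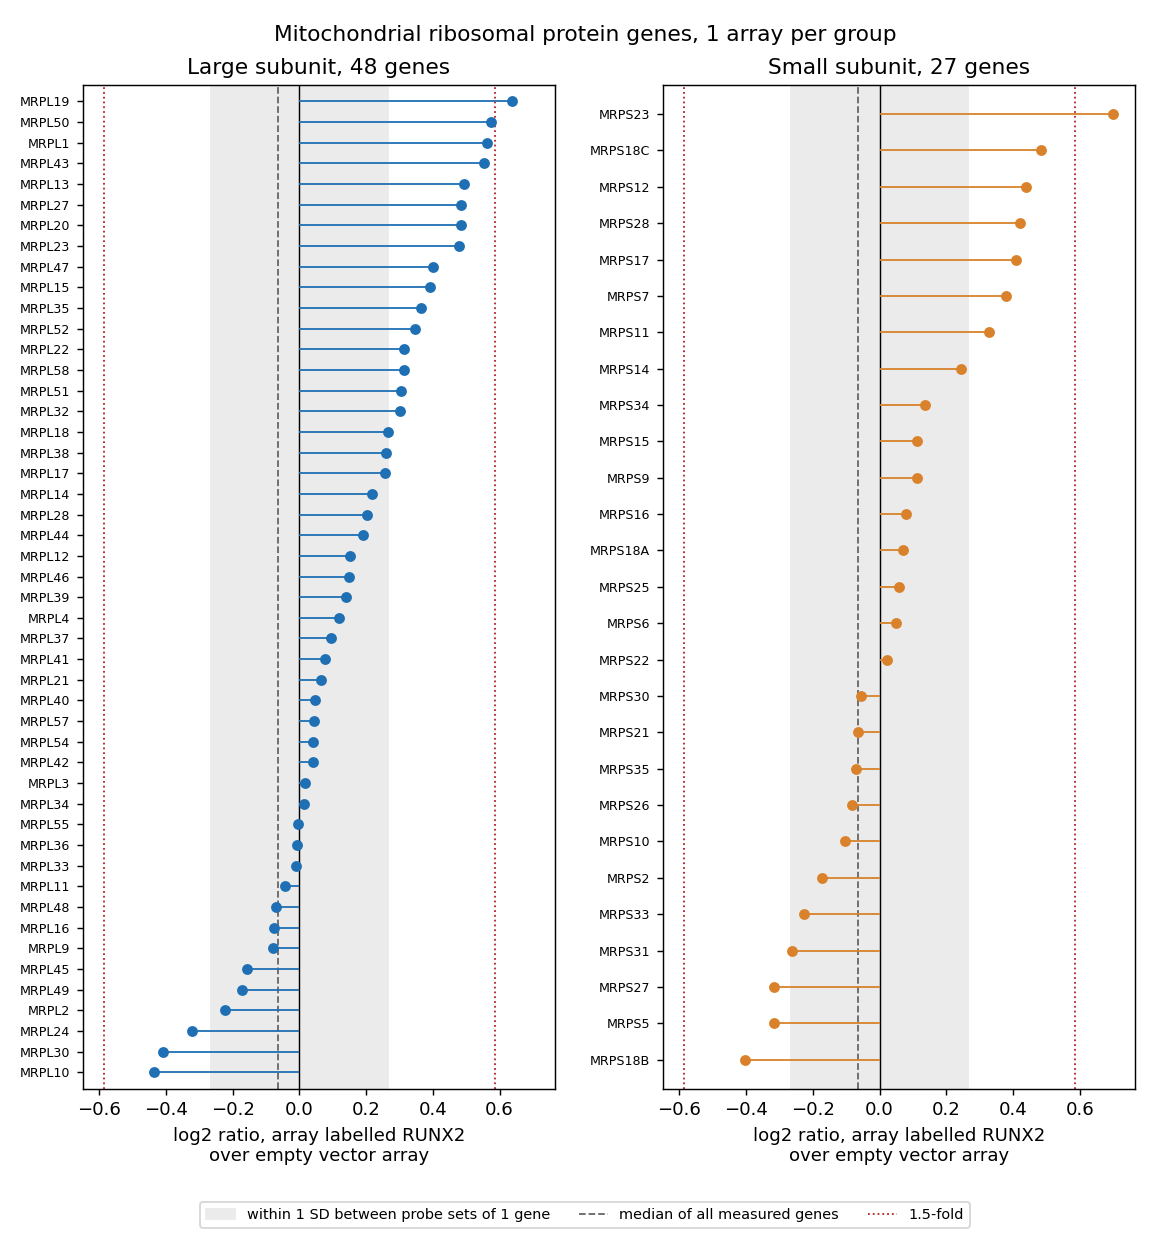
Log2 ratio of the array labelled RUNX2 over the empty vector array (x axis) for each of 48 large subunit genes (left) and 27 small subunit genes (right), 1 dot per gene, sorted by ratio. The grey band spans 1 SD (0.27) between probe sets of 1 gene, the dashed line is the median of all measured genes (-0.06) and the dotted lines mark 1.5-fold; MRPL19 and MRPS23 lie past the upper line and no gene lies past the lower one.

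Promoters are shown for the highest and the lowest member of each subunit among the 67 members with an entry in the RefSeq promoter table (build GRCh38.p14). These genes bound the range of ratios in each subunit among the 67. MRPL10, the lowest of all 75 with -0.44, had no entry. Each window runs from 250 bases before to 50 bases after the annotated start, 5′ to 3′ on the gene's strand. Capitals mark matches, on either strand, to CCGGAAG, the core bound by ETS factors such as GABP, or to AAGATGGCG, the core bound by YY1. The windows are MRPS23 at chr17:57849995-57850294 on the minus strand, MRPS18B at chr6:30617590-30617889 on the plus strand, MRPL19 at chr2:75646533-75646832 on the plus strand and MRPL30 at chr2:99180934-99181233 on the plus strand.
MRPS23: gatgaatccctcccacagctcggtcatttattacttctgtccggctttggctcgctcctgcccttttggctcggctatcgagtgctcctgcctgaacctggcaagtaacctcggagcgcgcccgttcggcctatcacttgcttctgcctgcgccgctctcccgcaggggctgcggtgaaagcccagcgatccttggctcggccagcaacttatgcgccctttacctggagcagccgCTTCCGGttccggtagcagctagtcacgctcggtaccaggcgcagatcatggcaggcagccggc
MRPS18B: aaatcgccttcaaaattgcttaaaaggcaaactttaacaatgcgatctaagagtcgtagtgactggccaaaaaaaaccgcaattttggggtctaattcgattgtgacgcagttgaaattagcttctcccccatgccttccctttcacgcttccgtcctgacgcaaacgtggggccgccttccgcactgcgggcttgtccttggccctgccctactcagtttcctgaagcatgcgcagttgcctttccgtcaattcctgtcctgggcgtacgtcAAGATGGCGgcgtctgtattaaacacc
MRPL19: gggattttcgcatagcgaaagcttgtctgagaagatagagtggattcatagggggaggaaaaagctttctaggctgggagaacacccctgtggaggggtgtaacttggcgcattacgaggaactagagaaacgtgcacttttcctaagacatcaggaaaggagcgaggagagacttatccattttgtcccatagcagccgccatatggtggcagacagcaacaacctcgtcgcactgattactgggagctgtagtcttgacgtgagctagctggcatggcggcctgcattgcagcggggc
MRPL30: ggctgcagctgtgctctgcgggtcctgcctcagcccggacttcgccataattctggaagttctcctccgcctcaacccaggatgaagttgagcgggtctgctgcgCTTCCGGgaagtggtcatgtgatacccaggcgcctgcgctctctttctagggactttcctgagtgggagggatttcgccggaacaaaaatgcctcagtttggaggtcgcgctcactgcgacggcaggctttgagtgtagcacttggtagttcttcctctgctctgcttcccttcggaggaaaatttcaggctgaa
Of these 4 windows, that of MRPS23, the highest member, and that of MRPL30, among the lowest, each hold the ETS core. The window of MRPS18B holds the YY1 core, and that of MRPL19 holds neither.

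Over all 67 members with an entry, taking any listed start of a gene, 29 (43.3%) held CCGGAAG, against 21.9% of 9723 measured genes with an entry and 16.5% of all 15842 protein-coding genes in the table. AAGATGGCG stood in 12 members (17.9%) and in 4.66% of the measured and 3.21% of all genes. The core bound by NRF1, named here without its letters, stood in 9 members (13.4%) and in 13.2% of the measured and 9.66% of all genes. The RUNX core TGTGGT stood in 6 members (8.96%) and in 13.3% of the measured and 14.5% of all genes. The members' median log2 ratio was 0.08 with and 0.09 without the ETS core, 0.11 with and 0.08 without the YY1 core, 0.01 with and 0.10 without the NRF1 core, and 0.24 with and 0.07 without the RUNX core. All motifs were sought on both strands, the ETS and YY1 cores can share the letters AAG where they adjoin, and a match is a description of letters, not a binding site.

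The large subunit members lay slightly above the small subunit members. The 48 MRPL genes had a median log2 ratio of 0.14, with the middle 50% of genes between -0.01 and 0.32, and 35 of them were above 0. The 27 MRPS genes had a median of 0.06, with the middle 50% of genes between -0.09 and 0.29, and 16 of them were above 0. These counts are 72.9% of the MRPL and 59.3% of the MRPS genes, where 42.7% of all genes were above 0. The ranges overlapped nearly in full, from -0.44 to 0.64 in the large and from -0.40 to 0.70 in the small subunit. The difference of the medians, large minus small, was 0.08, and the SD between genes was 0.26 in the large and 0.28 in the small subunit. It was -0.01 when ratios were averaged over the probe sets of a gene. It was 0.01 without the probe sets that can match several transcripts (names ending in _x_at or _s_at). MRPS30 and MRPS18A carry small subunit names but sit in the large subunit of the human mitochondrial ribosome. With both moved, the median was 0.13 in the large and 0.06 in the small subunit.

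**Figure D2:**
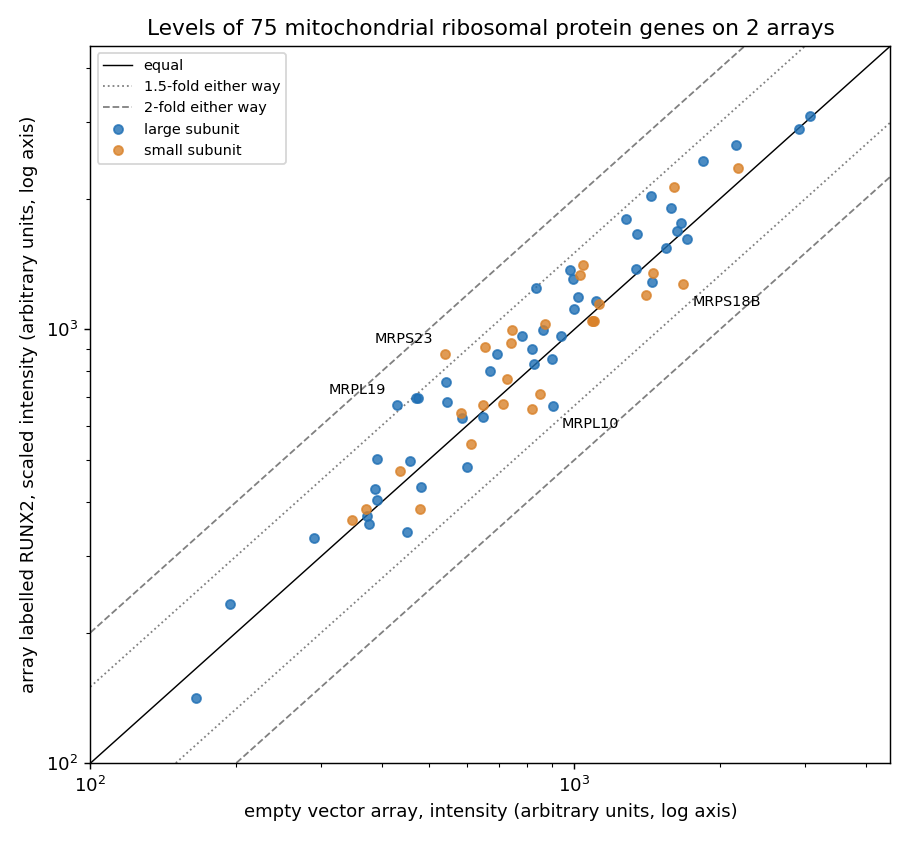
Scaled intensity on the array labelled RUNX2 (y axis) against intensity on the empty vector array (x axis), both in arbitrary units on log axes, 1 dot per gene for 48 large and 27 small subunit genes. The solid line marks equal values and the broken lines 1.5-fold and 2-fold; all 75 dots lie within the 2-fold lines, and MRPS23 and MRPL19 lie just past the upper 1.5-fold line.

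In the large subunit, MRPL19, a counterpart of bacterial L19, read 669.8 on the array labelled RUNX2 and 431 on the empty vector array, 1.55-fold higher. MRPL50, which has no bacterial counterpart, read 1243 on the array labelled RUNX2 and 835 on the empty vector array, 1.49-fold higher and just short of the 1.5-fold size. MRPL1, a counterpart of the protein of the bacterial L1 stalk, read 694 on the array labelled RUNX2 and 470.4 on the empty vector array, 1.48-fold higher. These genes and MRPL43 (1.47-fold) were the highest of the subunit. Next came MRPL13 with a log2 ratio of 0.49, MRPL27 with 0.48, a counterpart of a bacterial protein beside the peptidyl transferase centre, and MRPL20 with 0.48, whose bacterial counterpart is needed to assemble the large subunit. MRPL27 read 1372 on the array labelled RUNX2 and 980.4 on the empty vector array.

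At the other end, MRPL10, which forms the base of the stalk that recruits translation factors, read 666 on the array labelled RUNX2 and 901 on the empty vector array, a log2 ratio of -0.44. MRPL30 read 341 on the array labelled RUNX2 and 452 on the empty vector array, -0.41. MRPL24 read 481 on the array labelled RUNX2 and 601 on the empty vector array, -0.32. After these came MRPL2 with -0.22, a counterpart of a core protein of the bacterial peptidyl transferase region, MRPL49 with -0.17, and MRPL45 with -0.16, which anchors the ribosome to the inner membrane. None of the lower large subunit genes reached 1.5-fold, and 13 of the 48 lay below 0.

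In the small subunit, MRPS23, a mitochondria-specific protein, read 877 on the array labelled RUNX2 and 539 on the empty vector array, 1.63-fold higher and the highest ratio of all 75. MRPS18C read 912 on the array labelled RUNX2 and 653 on the empty vector array, 1.40-fold higher. MRPS12, a counterpart of the bacterial decoding-centre protein S12, read 1411 on the array labelled RUNX2 and 1040.2 on the empty vector array, 1.36-fold higher. MRPS28, MRPS17 and MRPS7 followed with log2 ratios of 0.42, 0.41 and 0.38. The lowest was MRPS18B, at 1270.2 on the array labelled RUNX2 and 1678 on the empty vector array, a log2 ratio of -0.40. MRPS5 and MRPS27, a pentatricopeptide repeat protein that binds RNA, both had -0.32. MRPS31 had -0.26, MRPS33 had -0.23 and MRPS2 had -0.17.

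The 3 paralogues related to bacterial S18 lay apart. MRPS18C, the copy in the position of bacterial S18, had 0.48, MRPS18A, which sits in the large subunit, had 0.07, and MRPS18B had -0.40. A second probe set of MRPS18A gave 0.26 and one of MRPS18B gave -0.20, each on the same side of 0 as the brightest one. The other probe sets of MRPS18C lay below the floor on both arrays.

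Grouped by position in the ribosome, members of 1 site did not share a direction in their brightest probe sets. This grouping was made after the values were seen. At the stalk, MRPL12, which is also known to bind the mitochondrial RNA polymerase, had a log2 ratio of 0.15 and MRPL11 had -0.04, beside -0.44 in MRPL10, on which MRPL12 is mounted. At the exit of the nascent peptide, MRPL23, MRPL47 and MRPL22 had 0.48, 0.40 and 0.31, and MRPL24 and MRPL45 lay below 0. Near the peptidyl transferase centre, MRPL27 had 0.48, MRPL3 had 0.02, MRPL16 had -0.08 and MRPL2 had -0.22. In the head of the small subunit, MRPS7, MRPS14 and MRPS9 had 0.38, 0.24 and 0.11, and MRPS10 had -0.10. The other measured probe sets of MRPS10 each gave 0.28, on the side of the other head members. On its platform, MRPS18C and MRPS11 had 0.48 and 0.33, while MRPS15, MRPS6 and MRPS21 lay between -0.07 and 0.11.

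The 46 members with a bacterial counterpart had a median log2 ratio of 0.12, with 31 (67.4%) above 0. The 28 mitochondria-specific members had 0.05, with 19 (67.9%) above 0, where 42.7% of all genes were. Among the mitochondria-specific ones, 15 of 18 of the large subunit (83.3%) lay above 0, with a median of 0.12. Of the small subunit 4 of 10 (40%) did, near the share of all genes, with a median of -0.06. MRPS28, with 0.42, was put in neither class. MRPL58, the former ICT1, a peptidyl-tRNA hydrolase built into the ribosome, had 0.31. MRPL44, which carries a ribonuclease III-like fold, had 0.19.

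Several members had readings so alike on both arrays that no difference was visible. MRPL3 read 3101 on the array labelled RUNX2 and 3066 on the empty vector array, MRPL33 read 2891 on the array labelled RUNX2 and 2914 on the empty vector array, and MRPL34 read 832 on the array labelled RUNX2 and 825 on the empty vector array. MRPS22 had log2 ratios between 0.02 and 0.04 in all 4 of its probe sets. In all, 25 of the 75 members lay within 0.10 of 0 on the log2 scale, as did 2829 of the 12729 measured genes. Members' readings ran from 142 to 3101 on the array labelled RUNX2 and from 165 to 3066 on the empty vector array, all above the floors of 51.8 on the array labelled RUNX2 and 55.3 on the empty vector array. MRPL3, MRPL33 and MRPL51 (2656 on the array labelled RUNX2 and 2153 on the empty vector array) in the large subunit and MRPS15 (2350.4 on the array labelled RUNX2 and 2174 on the empty vector array) in the small one had among the brightest readings, which also depend on the probes.

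Different probe sets of the same member gave a measure of spread within the arrays. This spread can also hold differences between transcripts of a gene, and it leaves out error between arrays and between cultures. Of the 75 members, 29 had 2 or more measured probe sets, 77 in all, and the SD between probe sets of 1 gene was 0.27, where all 6165 genes with 2 or more gave 0.29. In 11 of the 29 (37.9%) the probe sets lay on both sides of 0, as in 40.0% of those 6165 genes. Both members past 1.5-fold were among the 11. For MRPL19, 232071_at read 95.5 on the array labelled RUNX2 and 128 on the empty vector array, a log2 ratio of -0.42 against 0.64 in the brightest probe set. For MRPS23, 238728_at read 54.7 on the array labelled RUNX2 and 59.4 on the empty vector array, close to the floors, with -0.12 against 0.70. Averaged over probe sets, MRPL19 had 0.11 and MRPS23 had 0.29. MRPL50 differed from both, since its probe sets gave 0.57 and 0.61, and 225580_at read 765 on the array labelled RUNX2 and 501 on the empty vector array.

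MRPL43 had 3 probe sets of similar brightness on the empty vector array that did not go the same way. The probe set 230026_at read 696 on the array labelled RUNX2 and 474 on the empty vector array (0.55), 230027_s_at read 412 on the array labelled RUNX2 and 460.5 on the empty vector array (-0.16), and 224332_s_at read 339 on the array labelled RUNX2 and 457 on the empty vector array (-0.43). The mean over them was -0.01, so its place among the highest members rests on 230026_at. MRPL43 and MRPL19 were the 2 members, of 29 with 2 or more measured probe sets, with probe sets at least 0.3 on each side of 0. Among all 6165 such genes, 324 had probe sets that far apart on both sides. MRPL30, the lowest of the large subunit after MRPL10, had log2 ratios from -0.41 to 0.16 over the 4 of its probe sets that cleared both floors, and 243801_x_at, with 0.16, read 407 on the array labelled RUNX2 and 364 on the empty vector array. Its place near the bottom rests on 1 probe set, 224971_at, at 341 on the array labelled RUNX2 and 452 on the empty vector array. That probe set was brighter than 243801_x_at on the empty vector array and dimmer on the array labelled RUNX2.

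Some members differed more in their dimmer probe sets. MRPL4 had 0.12 in its brightest probe set, and its others gave 0.79, at 276 on the array labelled RUNX2 and 159.7 on the empty vector array, and 0.61. MRPS12, at 0.44 in the brightest, gave 0.83 in 210008_s_at and at least 0.98 in 204330_s_at, whose reading in empty vector cells was under the floor, and 0.05 in a further one. MRPS16 had 0.08 and 0.50. MRPS25 had 0.06 in its brightest probe set, and -0.58 and -0.39 in the others, with 224015_s_at at 100.4 on the array labelled RUNX2 and 151 on the empty vector array.

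**Figure D3:**
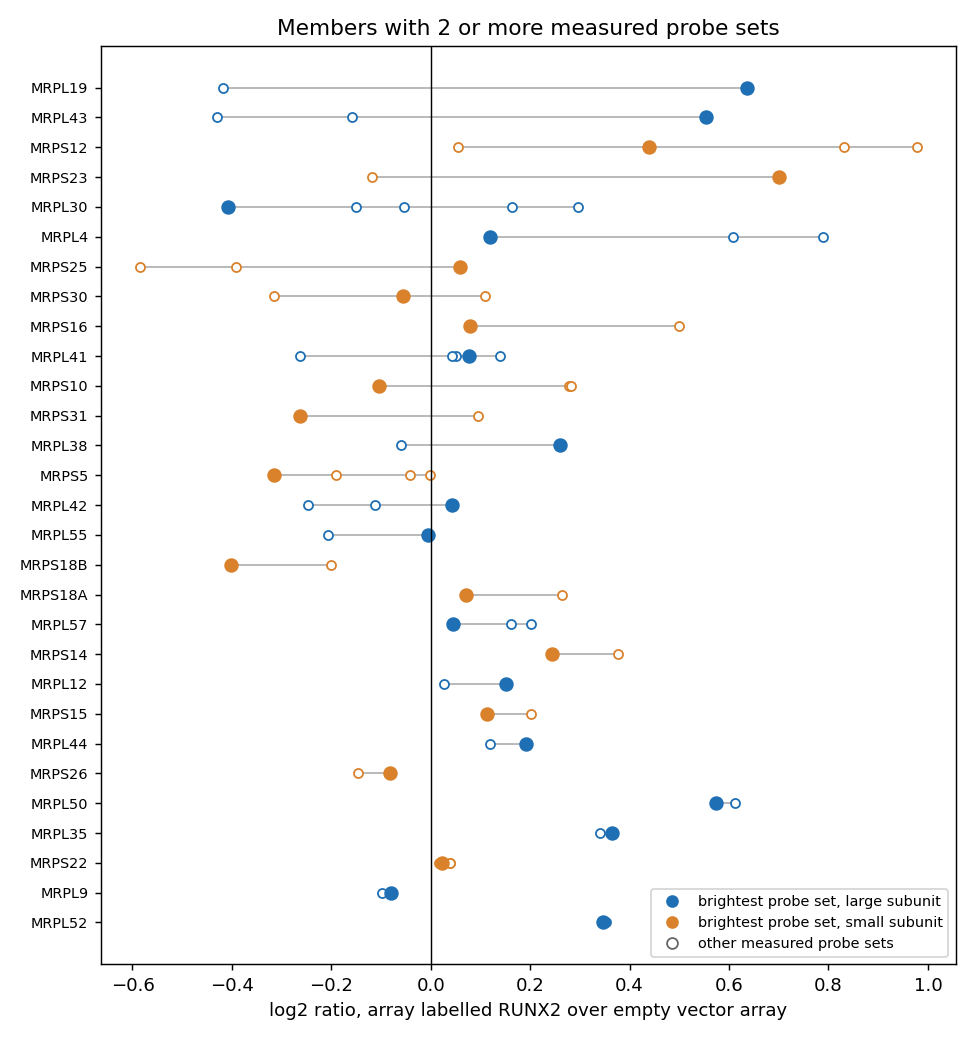
Log2 ratio of the array labelled RUNX2 over the empty vector array (x axis) for each measured probe set of the 29 members with 2 or more, sorted by their spread; filled dots are the brightest probe set of a gene and open dots the others, and a value with 1 array below its floor is a bound. The widest spreads are those of MRPL19 (-0.42 to 0.64) and MRPL43 (-0.43 to 0.55), and MRPL50, MRPL35, MRPL52, MRPL9 and MRPS22 have probe sets that nearly coincide.

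The kind of probe set moved with the ratios. Where an ID ending in _x_at or _s_at stood for the gene, 44 members had a median log2 ratio of 0.14, and where another ID did, 31 members had 0.05. Over all genes the same medians were -0.03 and -0.09. Within the second kind, 20 large subunit members had 0.06 and 11 small subunit members had -0.06. The part of the probe sets in these differences was not tested further.

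Other proteins and factors of the mitochondrial ribosome showed no common direction. Of 5 proteins of the ribosome with other symbols, 4 were measured and all lay above 0 in their brightest probe set. These were CHCHD1 with 0.35, GADD45GIP1 with 0.32, DAP3, a GTP-binding protein of the small subunit, with 0.11 and PTCD3 with 0.01. Other probe sets of DAP3 gave -0.35 and -0.22. The 25 measured assembly factors had a median log2 ratio of -0.03. Of these, 3 were 1.5-fold higher or more, where 5.77% of all genes were. In the other direction 2 passed that size, where 6.88% of all genes did. The higher ones were the ribosomal RNA methyltransferase MRM3 (130 on the array labelled RUNX2 and 68.9 on the empty vector array, 0.91), the GTPase MTG1 (216 on the array labelled RUNX2 and 115 on the empty vector array, 0.90) and MPV17L2 (0.75). The lower ones were TFB1M, which dimethylates the small subunit RNA (378 on the array labelled RUNX2 and 664 on the empty vector array, -0.81, with -0.87 and -0.12 in other probe sets), and the GTPase NOA1 (-0.64).

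Among 15 measured translation factors the median was 0.05, and 1 was at least 1.5-fold higher, where 5.77% of all genes were. The 1 factor was SLIRP, a partner of LRPPRC in mRNA stability. It read 2596 on the array labelled RUNX2 and 1722 on the empty vector array (0.59). The release factor MTRF1L had 0.56, with 0.69 in another probe set, and the initiation factors MTIF2 and MTIF3 had -0.47 and -0.51. The elongation factor TUFM had 0.05. The 15 measured mitochondrial tRNA synthetases had a median of -0.04. CARS2 (0.73) and MARS2 (0.69) were at least 1.5-fold higher, where 5.77% of all genes were. WARS2 and EARS2 had -0.29 and -0.43. Other probe sets of CARS2 gave -0.11 and 0.30.

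Genes that copy, transcribe or process mitochondrial nucleic acids, taken with regulators of mitochondrial genes, centred on a log2 ratio of 0.14. This was the median over 26 measured genes, with 19 above 0, where 42.7% of all genes were. At least 1.5-fold higher were 2 of them, where 5.77% of all genes were. The 2 were HSD17B10, a subunit of mitochondrial ribonuclease P, and PNPT1, the mitochondrial polynucleotide phosphorylase (0.63). HSD17B10 read 1253 on the array labelled RUNX2 and 703 on the empty vector array (0.83). TFAM, which packages mitochondrial DNA, had 0.43, with 0.40 to 0.61 in its other probe sets. MYC, known to raise many ribosome genes, had -0.47, and POLG2 had -0.48. Of the factors whose cores were sought in the promoters, GABPB1 had 0.46 (0.91 in another probe set), GABPA -0.21 (0.05 in another), NRF1 0.21 (-0.02 to 0.56 in others) and YY1 0.08. The other 4 probe sets of YY1 lay below 0, from -0.60 to -0.09.

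The mitochondrial and cytosolic ribosomes lay on different sides of 0. The 52 measured cytosolic ribosomal protein genes had a median log2 ratio of -0.15 and 51 of them lay below 0, against 24 of the 75 mitochondrial members. Below 0 lay 57.3% of all genes. RPL12 was lowest at -0.48 and RPL14 next at -0.40, and in the small cytosolic subunit RPS9 was lowest at -0.28. The cytosolic genes also kept closer together in their brightest probe sets, with an SD between genes of 0.09 against 0.27. Most of those probe sets read far brighter than the members' ones, such as RPL12 at 9869 on the array labelled RUNX2 and 13805 on the empty vector array. The part of brightness in these SDs was not tested. The mitochondrial median exceeded the cytosolic one by 0.25, and by 0.19 to 0.26 over the 10 alternatives. With equal array medians the cytosolic median was -0.06, and with quantile normalization it was -0.10. The cytosolic medians stayed below 0 and the mitochondrial ones above 0 under all 10 alternatives run for both. The 44 measured nuclear genes of the respiratory chain lay between, at a median of 0.02 with 25 above 0. They ran from -0.46 in SDHD and -0.44 in ATP5MC2 to 0.35 in NDUFB8 and 0.36 in NDUFV2. No respiratory chain gene and no cytosolic ribosomal gene reached 1.5-fold in its brightest probe set, where 12.7% of all genes did. Other probe sets of some of these genes passed that size, such as those of RPL37 with -1.76 and 0.90 and 1 of ATP5F1C with -1.02.

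**Figure D4:**
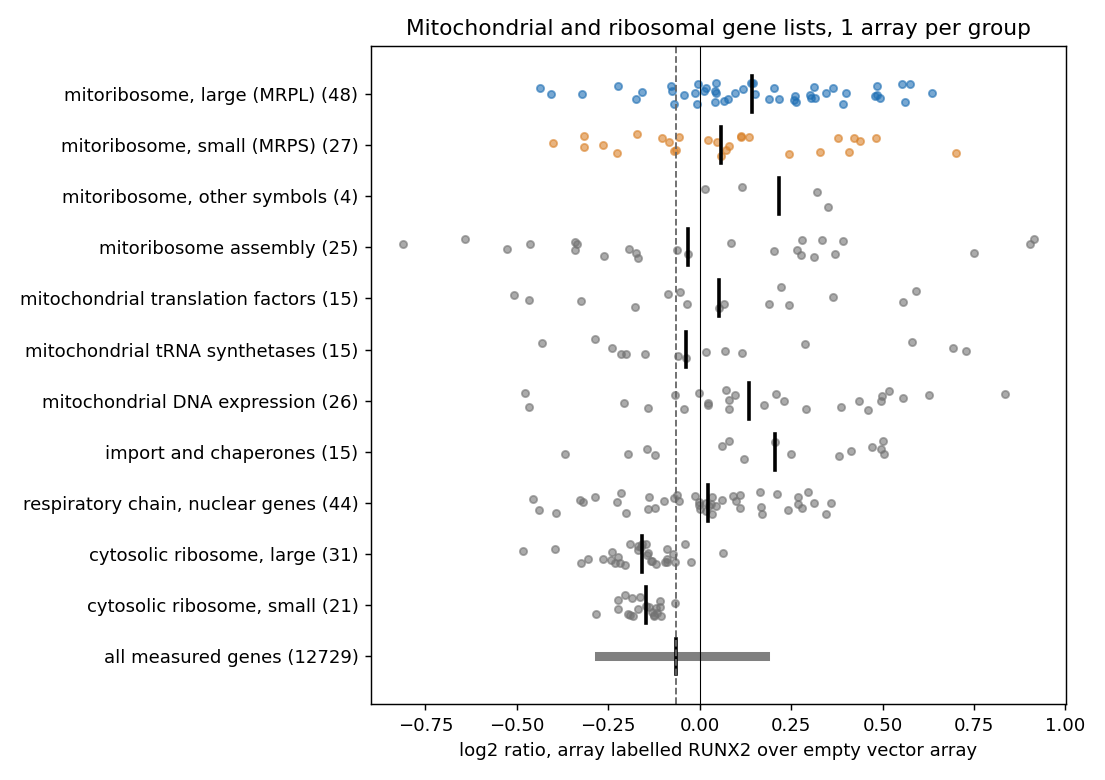
Log2 ratio of the array labelled RUNX2 over the empty vector array (x axis) for the measured genes of each list, 1 dot per gene, with the number of genes in brackets and a black bar at the median; the bottom line gives the middle 50% of all 12729 measured genes, and the dashed line their median. The large and small mitochondrial subunits have medians of 0.14 and 0.06, and the cytosolic ribosomal genes form narrow groups at -0.16 and -0.15.

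Neighbouring genes were compared where a member faces a protein-coding gene on the opposite strand with starts at most 1000 bases apart in the RefSeq promoter table. This held for 20 members, and 17 of the pairs had a measured neighbour that is no member. Both genes lay on the same side of 0 in 8 of the 17. MRPL46 and MRPS11 face each other across 320 bases and had log2 ratios of 0.15 and 0.33. MRPL32 had 0.30 and its neighbour PSMA2, a proteasome subunit, had 0.37, while MRPL30 had -0.41 and its neighbour MITD1 had 0.39. MRPS18B had -0.40 and its neighbour PPP1R10 had 0.56, and MRPL51 had 0.30 and its neighbour NCAPD2 had -0.56. MRPS12 had 0.44 and its neighbour SARS2, the mitochondrial seryl-tRNA synthetase, had 0.07. MRPL49 had -0.17 and its neighbour FAU, which encodes a cytosolic ribosomal protein, had -0.12.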

How the data were processed

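Biotin-labelled cRNA from total RNA of Ca9-22 cells was hybridised to 1 Affymetrix array for each vector, as the labels' protocols describe. Linear intensities of 54675 probe sets were deposited by the authors for each array, and MAS5 is named in the submitters' processing notes; version, scaling target and genome build are not given in the sources used here. Samples were grouped by title. Python 3.11.15, pandas 2.3.3 and scipy 1.17.1 were used. After removal of 62 control probe sets, a factor of 0.966 on the array labelled RUNX2 made the 2% trimmed means equal. The floor was each array's median, and a value below it was raised to it, so that the ratio is then a bound. Probe sets with 1 platform symbol (41091 of 54613) named genes, of which 41037 were looked up by gene ID in a RefSeq table (GRCh38.p14). Probe sets with several symbols (1801) or none (11721) named none. The brightest measured probe set stood for its gene. Brightness was the mean log2 level over both arrays, so the choice of probe set used the values that are compared.

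Members, lists and alternatives were chosen with earlier results of these data known. Named were the 6 highest and 6 lowest members of each subunit, those past 1.5-fold or nearest to it, the S18 paralogues, bright members, members with opposed probe sets, and the extremes of each list. Members named by ribosome site, by known role or for near-equal readings, and the neighbouring genes, were chosen after their values were seen. No test was made, since there is 1 array per group. Alternatives changed scaling, floor, probe set, subunit assignment and naming. The scripts were tested on simulated arrays.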

Additional observations from a re-analysis of the deposited data

How the results depend on the processing

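The medians of all members, of each subunit and of their difference were recomputed under 15 alternatives, 13 planned and 2 added after seeing the data, which were the mean in place of the median and leaving out the 11 members with probe sets on both sides of 0. The members' median ranged from 0.05 to 0.19, that of the large subunit from 0.06 to 0.24 and that of the small subunit from 0.04 to 0.15. The members' median minus that of all genes ranged from 0.11 to 0.20 over the alternatives of scaling, floor and probe set. The difference large minus small reached 0.09 at most and turned negative (-0.0072) for ratios averaged over probe sets; the cause was not tested. No member reached 2-fold under any of the 10 alternatives for scaling, floor and probe set, and none was 1.5-fold lower. Members at least 1.5-fold higher numbered 2, against 5 on the deposited scale and with equal medians, 1 with an offset and with probe sets averaged, and 4 without _x_at and _s_at probe sets, where 39 members remained measurable. For these 1.5-fold counts, the share of all genes under each alternative is not given. Members below 0 numbered 24 of 75, against 13 of 75 with equal medians and 15 of 39 without _x_at and _s_at probe sets. With the processing unchanged, 68% of members and 42.7% of all genes lay above 0. With equal medians these shares were 82.7% and 53.5%. Without _x_at and _s_at probe sets they were 61.5% and 41.4%, so there the share of members below 0 rose although their count fell. Assembly factors (-0.03) turned to 0.017 on the deposited scale, 0.059 with equal medians, 0.014 without a floor, 0.00915 with probe sets averaged and 0.026 without _x_at and _s_at probe sets. The tRNA synthetases (-0.04) turned to 0.013 on the deposited scale and 0.056 with equal medians. With probe sets averaged, the proteins with other symbols had 0.11, translation factors 0.17 and import genes 0.32; without _x_at and _s_at probe sets these had 0.014, -0.034 and 0.060. Of 713 recomputed single-member ratios, 9 moved by more than the SD between probe sets. All 9 came with probe sets averaged or without _x_at and _s_at probe sets. The other alternatives could hardly move a member that far. Scaling shifted members nearly alike, and the floors lay below nearly all their readings. Among the 9, MRPL43 turned to -0.01 and MRPS25 to -0.31 with probe sets averaged. MRPL42 turned to -0.25 without _x_at and _s_at probe sets. Of the 2 members past 1.5-fold, 0 changed sign. No paired analysis was possible because each group holds 1 array. The floor, the number of arrays and the brightness of single probe sets limit these values.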

Other observations

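Genes of mitochondrial protein import and of the matrix chaperones and proteases handle imported proteins such as the mitochondrial ribosomal ones. They centred on a log2 ratio of 0.21 (the median over 15 measured genes), with 11 above 0, where 42.7% of all genes were. None was at least 1.5-fold either way in its brightest probe set, where 12.7% of all genes were. Another probe set of TIMM17A gave 0.79 and 1 of HSPD1 gave 0.62, both past that size. The median was 0.32 with probe sets averaged, 0.12 with a higher floor and 0.060 without _x_at and _s_at probe sets. The channel protein TOMM40 read 177 on the array labelled RUNX2 and 125 on the empty vector array (0.50), and the co-chaperonin HSPE1 read 3057 on the array labelled RUNX2 and 2158 on the empty vector array (0.50). The mitochondrial Hsp70 HSPA9 had 0.38, with 0.64 and 0.67 in its other probe sets. The receptors TOMM70 and TOMM20 lay at -0.20 and -0.37, and another probe set of TOMM70 gave 0.16.

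The 3 members on chromosome 8, MRPL13, MRPS28 and MRPL15, had 0.49, 0.42 and 0.39, where the 455 measured genes of that chromosome had a median of -0.02. The 2 on chromosome 4, MRPL1 and MRPS18C, had 0.56 and 0.48, where the 447 genes of that chromosome had -0.07. Both chromosomes were picked after the values were seen.

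Probe sets that match a member and another gene could not be counted. One shared by MRPL53 and CCDC142 read 829.7 on the array labelled RUNX2 and 681 on the empty vector array (0.28), one shared by MRPL51 and SPTLC1 read 707 on the array labelled RUNX2 and 568 on the empty vector array (0.32, where MRPL51 itself had 0.30), and one shared by MRPS24 and the readthrough URGCP-MRPS24 read 2085 on the array labelled RUNX2 and 2189.7 on the empty vector array (-0.07). The antisense transcript MRPL20-AS1 had -0.04, where MRPL20 had 0.48. Without strand information for the probe sets, their overlap was not analysed here.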
